A study of Mus musculus with 12 samples.

Results

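The Forkhead box family was examined in ATAC-seq peak lists from mouse embryonic stem cells, which record where the Tn5 enzyme could cut open chromatin. Members were the protein-coding genes on chromosomes 1 to 19 whose symbol is Fox followed by a letter and a number. The count took in 40 genes out of 20665 protein-coding genes on the same chromosomes, in 19 subfamilies named by the letter, of which 6 had a single member. A gene was counted as listed in a library when a peak overlapped the gene or the 2 kb on either side of it by at least 1 bp.

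Forkhead proteins are transcription factors that bind DNA through a winged-helix domain. Some members, such as the Foxa proteins, can bind sites in closed chromatin, others, such as the Foxo proteins, are moved out of the nucleus when insulin and growth factor signalling is active, and many are switched on in a single germ layer or organ. In embryonic stem cells the family is known for Foxd3, which the early embryo needs to keep its epiblast, for Foxp1, of which stem cells make their own splice form, and for Foxo1 and Foxm1.

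The cells were a BL6xCAST line with a construct integrated on chromosome X, and the study asked whether the synthetic HPRT1 and HPRT1R sequences are open there, relative to the rest of the genome. The synHPRT1R group had 6 libraries, from 2 clones with 3 replicates each, and the synHPRT1 group had the same numbers. Both groups shared the strain background, the site on chromosome X and culture on gelatin with LIF in a medium that was mainly 2i, and no group without a construct was among the samples used here. Each clone is 1 derived line, so the clone is the independent unit, and nothing in the labels tells whether the replicates were grown as separate cultures. The p-values below therefore describe spread among libraries that may be technical repeats.

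The lists held 41737 to 58099 peaks in synHPRT1R libraries and 38403 to 63704 in synHPRT1 libraries, and read depth is not given in them. The embryonic stem cell label was checked against marker genes. Of 10 stem cell markers, 9 were listed in all 12 libraries, among them Pou5f1, Nanog and Sox2, and Prdm14 was listed in 8. Of 10 fibroblast and feeder markers 1, Pdgfrb, was listed in all 12, Col1a1 and Twist2 in 11 each, Col1a2 and Col3a1 in 8 each, Dcn in 3, and Thy1 and Lum in 1 each. Postn and S100a4 were listed in none. Of 10 genes of differentiated tissues, 3, Ptprc, Krt10 and Umod, were listed in all 12, Gfap in 11, Cdh5 in 10 and Myh6 in 1, and 4, Alb, Ins2, Cd3e and Krt5, in none.

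The bases upstream of 6 members are shown because they span the range of detection at the gene start, including a start listed in every library, starts beside a peak that lay inside the gene, and starts without a peak. Each is the 200 bases before the RefSeq start in GRCm38.p6, read 5′ to 3′ along the gene, with each CpG dinucleotide in capitals. Foxi3 lies at chr6:70956406-70956605 on the plus strand, Foxk2 at chr11:121259787-121259986 on the plus strand and Foxd3 at chr4:99656099-99656298 on the plus strand. Foxe3 lies at chr4:114926068-114926267, Foxn4 at chr5:114273762-114273961 and Foxi1 at chr11:34208090-34208289, all on the minus strand. The Foxn4 bases lie inside the annotated gene, which runs to 114274418.
Foxi3: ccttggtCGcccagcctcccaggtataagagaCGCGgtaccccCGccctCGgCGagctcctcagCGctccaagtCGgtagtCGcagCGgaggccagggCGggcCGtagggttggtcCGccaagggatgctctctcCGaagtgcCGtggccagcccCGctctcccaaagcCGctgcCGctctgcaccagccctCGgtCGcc
Foxk2: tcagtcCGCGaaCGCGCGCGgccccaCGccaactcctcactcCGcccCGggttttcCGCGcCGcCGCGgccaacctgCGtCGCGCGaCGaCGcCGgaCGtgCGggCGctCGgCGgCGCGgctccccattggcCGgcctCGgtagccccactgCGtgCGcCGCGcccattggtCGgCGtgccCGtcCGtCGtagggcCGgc
Foxd3: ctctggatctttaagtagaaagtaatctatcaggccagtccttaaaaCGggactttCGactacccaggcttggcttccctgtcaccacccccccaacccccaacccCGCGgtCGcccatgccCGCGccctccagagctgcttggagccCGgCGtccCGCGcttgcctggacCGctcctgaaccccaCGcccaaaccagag
Foxe3: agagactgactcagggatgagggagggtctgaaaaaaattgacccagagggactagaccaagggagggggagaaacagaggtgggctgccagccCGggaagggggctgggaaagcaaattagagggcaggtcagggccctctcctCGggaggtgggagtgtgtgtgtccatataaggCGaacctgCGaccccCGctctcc
Foxn4: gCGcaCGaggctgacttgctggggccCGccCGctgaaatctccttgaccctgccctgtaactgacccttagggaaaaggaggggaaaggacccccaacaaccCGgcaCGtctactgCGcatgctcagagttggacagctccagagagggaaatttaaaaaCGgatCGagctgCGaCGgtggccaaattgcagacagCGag
Foxi1: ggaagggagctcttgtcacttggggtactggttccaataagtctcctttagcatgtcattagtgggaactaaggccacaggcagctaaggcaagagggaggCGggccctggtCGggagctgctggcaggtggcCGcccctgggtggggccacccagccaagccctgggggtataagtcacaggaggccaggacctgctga
The sequence of Foxk2 held 40 CpG, that of Foxi3 20, Foxd3 13, Foxn4 12, Foxe3 5 and Foxi1 3. A peak on the promoter was listed for Foxi3 in 12 libraries, Foxk2 in 11, Foxd3 in 4 and Foxe3 in 3, and for Foxn4 and Foxi1 in none.

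Most of the family was listed in every library. Of the 40 members, 32 had a peak in all 12 libraries, which is 80%, beside 61.5% of all protein-coding genes. At least 10 libraries listed 35 members (87.5%, beside 68.2%), from 1 to 11 libraries listed 6 members (beside 18.8% of genes), and no library listed 2 members (5%, beside 19.7%). The 2 unlisted genes were Foxi1, known from the inner ear and kidney, and Foxs1, known from sensory neurons and pericytes. Every member was listed in all 12 libraries in 11 of the 19 subfamilies, among them A, B, D, E, K, O and P with several members each.

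**Figure D1:**
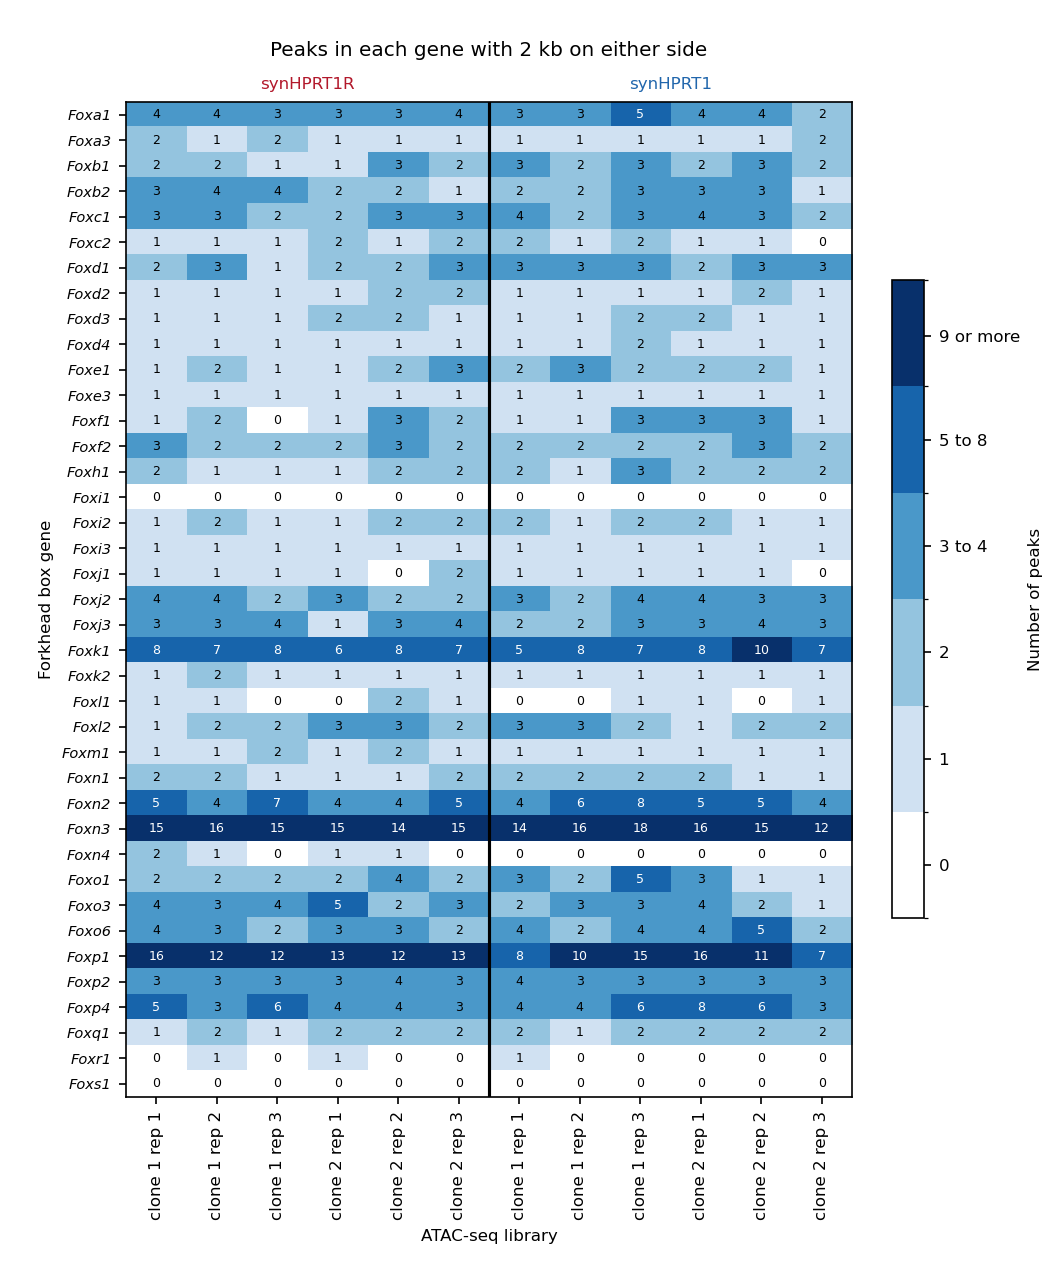
Number of peaks in each Forkhead box gene with 2 kb on either side, for every library. Rows are 39 genes, columns the 6 synHPRT1R and the 6 synHPRT1 libraries by clone and replicate, and colour and digits both give the number of peaks. Foxi1 and Foxs1 are empty throughout, and Foxn4 has peaks in 4 synHPRT1R libraries only.

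Gene length matters to such a count, since a longer gene offers more places for a peak. The family's median gene length was 4629 bp, against 17491 bp over all genes. Among genes under 10 kb, 17 of 24 members were listed in all 12 libraries (70.8%, beside 38.6% of genes of that length). Among genes of 10 kb or more, 15 of 16 members were (93.8%, beside 74.2%). No library listed 2 of the 24 shorter members (beside 41.1%) and 0 of the 16 longer ones (beside 7.87%). A peak near 2 genes is counted for both, and 9 members have another protein-coding gene within 2 kb. Of the 31 members without such a neighbour, 24 were listed in all 12 libraries (77.4%, beside 54.2% of genes without one).

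The share above the background was smaller on stricter lists. Every list was first reduced to the 38403 peaks with its lowest deposited p-values, which is the length of the shortest list. Then 28 members were listed in all 12 libraries (70%, beside 57.4%). They were 15 of 24 members under 10 kb (62.5%, beside 34.7%) and 13 of 16 longer ones (81.3%, beside 69.8%). A q-value filter that kept peaks whose −log10 q was 5 or more left 21 (52.5%, beside 50.2%). The family as a whole thus stood near the background, in a comparison that does not allow for its shorter genes. Members under 10 kb then numbered 8 of 24 (33.3%, beside 28.8%), and members of 10 kb or more 13 of 16 (81.3%, beside 62% of such genes).

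**Figure D2:**
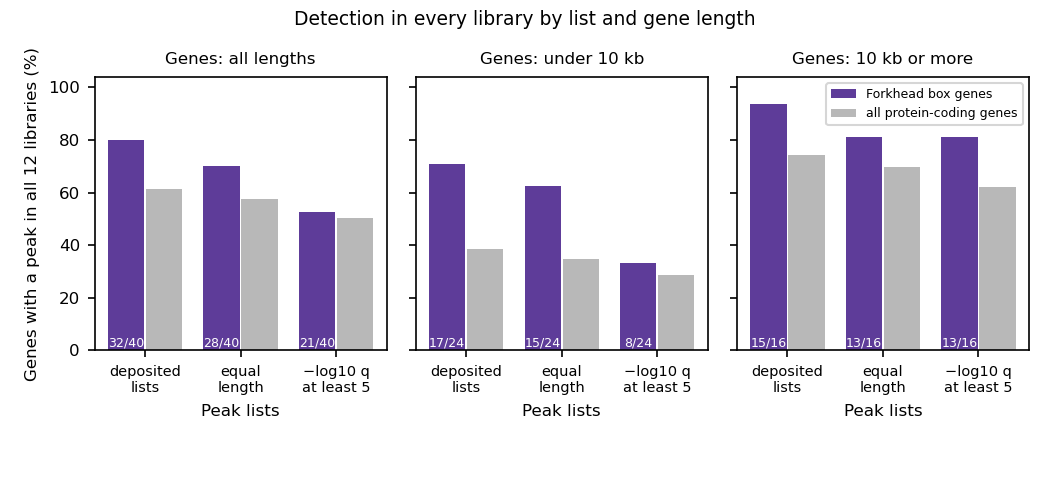
Percent of genes with a peak in all 12 libraries, for Forkhead box genes (purple) and all protein-coding genes (grey), by gene length and by peak list; fractions at the foot of the purple bars give the members. The bars of the 24 short members and of short genes in general come to 33.3% and 28.8% on the lists filtered by q-value, and the bars of the long members stay at 81.3% on both reduced lists.

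The broadly expressed members were listed throughout. All 11 were listed in 12 of 12 libraries: Foxj2, Foxj3, Foxk1, Foxk2, Foxm1, Foxn2, Foxn3, Foxo1, Foxo3, Foxp1 and Foxp4. Their median gene length was 60519 bp and the shortest, Foxm1, is 12893 bp. Of all genes of 10 kb or more, 74.2% were listed in all 12 libraries. Foxn3, a repressor linked to the DNA damage checkpoint, had 12 to 18 peaks per library in a gene of 373587 bp, a median of 3.97 per 100 kb of gene and flanks. Foxp1 had 12 to 16 peaks (median 12.5) in synHPRT1R libraries and 7 to 16 (median 10.5) in synHPRT1 libraries. The ranges overlapped, and the mean difference, synHPRT1R minus synHPRT1, was 1.83 peaks (two-sided exact permutation p = 0.327). Per 100 kb the median of Foxp1 was 2.00, and that of Foxk1, a regulator of metabolism and autophagy, was 11.6.

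Foxp1 has 3 starts in the RefSeq table, all on the minus strand of chromosome 6. The start at 99028298, the most internal, lies in a region of 1446 bp listed in all 12 libraries. The starts at 99266515 and 99520993 each had a peak within their 300 bases in 8 libraries. For the start at 99266515 these were 5 synHPRT1R and 3 synHPRT1 libraries, and for that at 99520993 they were 4 synHPRT1R and 4 synHPRT1 libraries. The promoter windows held 44, 5 and 13 CpG in that order.

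Foxo1 and Foxo3, which act downstream of the insulin and Akt pathway, each had 1 region shared by all 12 libraries. That of Foxo1, chr3:52267527-52270381, covered the start over 2855 bp. That of Foxo3, chr10:42277422-42278564, lay outside the gene, 727 bp before the start, and the start itself was listed in 8 libraries, 5 of synHPRT1R and 3 of synHPRT1. Foxo3 had 3.5 ± 1.05 peaks in synHPRT1R libraries and 2.5 ± 1.05 in synHPRT1 libraries (SD, n = 6 each; two-sided exact permutation p = 0.212). Foxo6, a brain member of the subfamily, had 2 to 5 peaks per library. Foxm1, which drives genes of mitosis, had 1 or 2 peaks in synHPRT1R libraries and 1 in every synHPRT1 library, and its shared region of 1731 bp overlaps both Foxm1 and its neighbour Rhno1.

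Of the other 29 members, most of them developmental genes, 21 were listed in every library. Of these 29, 24 are under 10 kb, a length at which 38.6% of all genes were listed in every library. The part of gene length in the contrast with the broadly expressed members was not tested. Foxa1 and Foxa3, factors of the liver and gut, were the endoderm members and had 12 libraries each. The strongest peak of Foxa3 had its summit 627 to 734 bp upstream of the start, and Sympk lies within 2 kb of Foxa3. In some libraries no peak touched Foxa3, and the nearest lay 45 to 149 bp off. The 300 bases at the RefSeq start of Foxa1, which lies inside the annotated gene, had no peak in any library. Its strongest peak lay 6968 to 7203 bp downstream of that start, past the far end of the gene. A region 328 bp from that start, chr12:57545040-57545783, was listed in 6 synHPRT1R and 4 synHPRT1 libraries (two-sided Fisher's exact p = 0.455, the lowest that 10 libraries allow).

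Of the 8 members known from mesoderm and mesenchyme, Foxc1, Foxd1, Foxd2 and Foxf2 were listed in all 12 libraries. That is 50%, beside 38.6% of genes under 10 kb, the length class of all 8. Foxc2, which acts in vessels and the skeleton, was listed in 6 synHPRT1R and 5 synHPRT1 libraries. Foxf1, which the lung and gut mesenchyme need, was listed in 5 synHPRT1R and 6 synHPRT1 libraries. The library without a Foxc2 peak, synHPRT1 clone 2 replicate 3, has the shortest list at 38403 peaks, and the one without a Foxf1 peak, synHPRT1R clone 1 replicate 3, has the next shortest at 41737. The part of list length in these gaps was not tested. Foxl1, a gene of gut mesenchyme, was listed in 4 synHPRT1R and 3 synHPRT1 libraries, and in 2 libraries in all when the flank was 1 kb.

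Foxs1, on chromosome 2, was listed in no library. The other 3 genes with gaps lie in 1 stretch of chromosome 8. Foxf1, Foxc2 and Foxl1 lie next to each other there, with 28.0 kb and 8.79 kb between the genes. The 50.3 kb from 2 kb before Foxf1 to 2 kb past Foxl1 held 12 regions, of which none was listed in all 12 libraries. A region before Foxf1 and the one on Foxc2 came closest, at 11 libraries each. On chromosome 13, the stretch of 256 kb with Foxq1, Foxf2 and Foxc1 held 13 regions, and 3 of them, 1 at each gene, were listed in all 12. The 23.8 kb with Foxd2 and Foxe3 on chromosome 4 held 3 regions, of which 2 were listed in all 12.

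**Figure D3:**
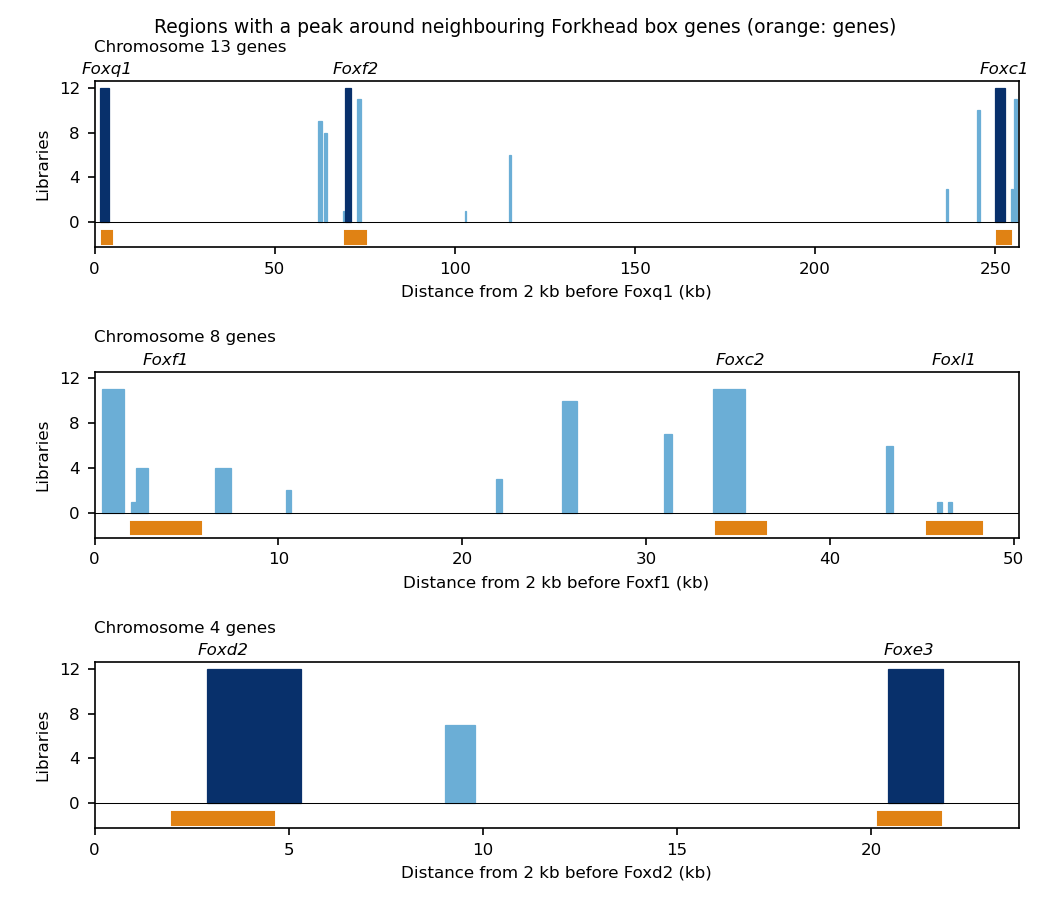
Consensus regions in the 3 stretches where Forkhead box genes lie close together. The x axis is the distance in kb from 2 kb before the first gene, bar width is the extent of the region, bar height is the number of libraries that list it (dark blue for all 12), and orange boxes are the genes. The chromosome 8 stretch has 12 regions and no dark bar, while each gene of the other 2 stretches has a dark bar on it.

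Of the 13 members known from neural and sensory tissues, 10 were listed in all 12 libraries (76.9%, beside 61.5% of all genes). Their median gene length was 3749 bp. Foxe3, needed for the lens, and Foxi3, needed for the ear placode, had exactly 1 peak in every library. The peak of Foxe3 covered 978 to 1283 bp, its summit lay 329 to 983 bp downstream of the start, and the region, chr4:114924703-114926130, takes in 1428 bp of which nearly all is gene. The summit of the Foxi3 peak lay between −154 and 225 bp of the start, with a median of 13 bp. Foxp2, known from circuits for vocalisation, had 3 or 4 peaks in 540629 bp, or 0.551 per 100 kb.

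Foxd3 had 1 or 2 peaks in every library of both genotypes. Its shared region, chr4:99656944-99657742, lay 645 bp downstream of the start, inside the gene. A second region of 334 bp covered the start and was listed in 4 libraries, 2 of synHPRT1R and 2 of synHPRT1. The authors' fold at its strongest peak ran from 3.12 to 4.94 with a median of 4.05. The q-value filter left Foxd3 listed in 9 libraries.

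Foxj1, the regulator of motile cilia, was listed in 5 synHPRT1R and 5 synHPRT1 libraries. It was missing from synHPRT1R clone 2 replicate 2, with 45731 peaks, and from synHPRT1 clone 2 replicate 3. Foxn4, which acts in the retina and spinal cord, was listed in 4 synHPRT1R libraries and in no synHPRT1 library. In synHPRT1R clone 1 it had 2, 1 and 0 peaks, and in clone 2 it had 1, 1 and 0. The 2 synHPRT1R libraries without the peak have the 2 shortest lists of that genotype, at 41737 and 44693 peaks, whereas synHPRT1 libraries with 63563 and 63704 peaks did not list it. The part of list length here was not tested.

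The Foxn4 region, chr5:114275534-114276019, is 486 bp wide and lies 1773 bp upstream of the RefSeq start. It lies 1116 bp from the gene, so no library listed the gene when the flank was 1 kb. The authors' fold there was 3.96 to 4.38. The difference between genotypes did not pass (two-sided Fisher's exact p = 0.0606, Benjamini-Hochberg adjusted p = 1 over 3886 genes). No split of a gene listed in 4 libraries gives a lower exact p. Under the q-value filter 1 library listed the gene.

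Foxh1 and the 4 members known from epithelia and organs were listed in all 12 libraries (beside 61.5% of all genes). Foxh1 brings Smad proteins to the targets of Nodal. It had 1 or 2 peaks in synHPRT1R libraries and 1 to 3 in synHPRT1 libraries, and its shared region, chr15:76671364-76671955, overlaps both Foxh1 and its neighbour Ppp1r16a. The other 4 were Foxe1 of the thyroid, Foxl2 of the ovary, Foxn1 of the thymus and Foxq1 of the hair. Foxn1 had 1 or 2 peaks per library but no region common to all 12. Its strongest peak lay 26073 to 28046 bp downstream of the start in a gene of 29.2 kb, and 8 libraries had a peak near either end of it. Foxr1, known from the germ line, was listed in 2 synHPRT1R libraries and 1 synHPRT1 library, by a region of 383 bp that begins 143 bp upstream of the start.

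For the 2 unlisted members, the nearest peak was far off. It lay 19293 to 90908 bp from Foxi1 over the 12 libraries, with a median of 20851 bp. For Foxs1 the distance was 9789 to 81906 bp, with a median of 17093 bp. In peak lists from bulk cells, a site open in few cells and a site weakly open in many cannot be told apart, and an unlisted gene was not detected rather than shown to be closed.

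The strength of the peaks also differed along the family. For each gene the strongest peak by the authors' fold was placed as a percentile of its own list, and the median was taken over the libraries with a peak. The family's median was 59.0 over 38 members, beside 73.0 over 16602 genes, and 24 members (63.2%, beside 74.8%) were above the middle of the list. Members under 10 kb had a median of 46.5, beside 59.0 for genes of that length, and members of 10 kb or more had 76.9, beside 77.3.

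The members with the strongest peaks by this measure were Foxn3 (median percentile 93.8), Foxj2 (91.9), Foxk1 (86.7), Foxi3 (86.2), Foxe3 (86.1) and Foxo6 (86.0). A gene with more peaks has more chances of a high strongest peak. The median number of peaks was 15 in Foxn3, 7.5 in Foxk1, 3 in Foxj2 and Foxo6, and 1 in Foxi3 and Foxe3. Foxp1, with a median of 12 peaks, stood lower. The part of peak number in this order was not tested. Foxn3's percentile ran from 90.1 to 97.9 over the 12 libraries and Foxj2's from 78.3 to 96.0, so neighbours in this order overlapped. The percentile of Foxk1 ran from 73.6 to 92.6, that of Foxi3 from 73.6 to 92.3, that of Foxe3 from 59.2 to 92.5 and that of Foxo6 from 70.4 to 95.4. At the lower end stood Foxr1 (13.3, from 3 libraries), Foxb2 (24.6), Foxd3 (26.3), Foxn4 (28.4, from 4 libraries) and Foxb1 (31.2), the last a gene of the developing thalamus and hypothalamus. Among the members known from stem cells, the median was 73.3 for Foxp1, 70.2 for Foxo3, 66.6 for Foxo1, 59.6 for Foxm1 and 52.5 for Foxh1.

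**Figure D4:**
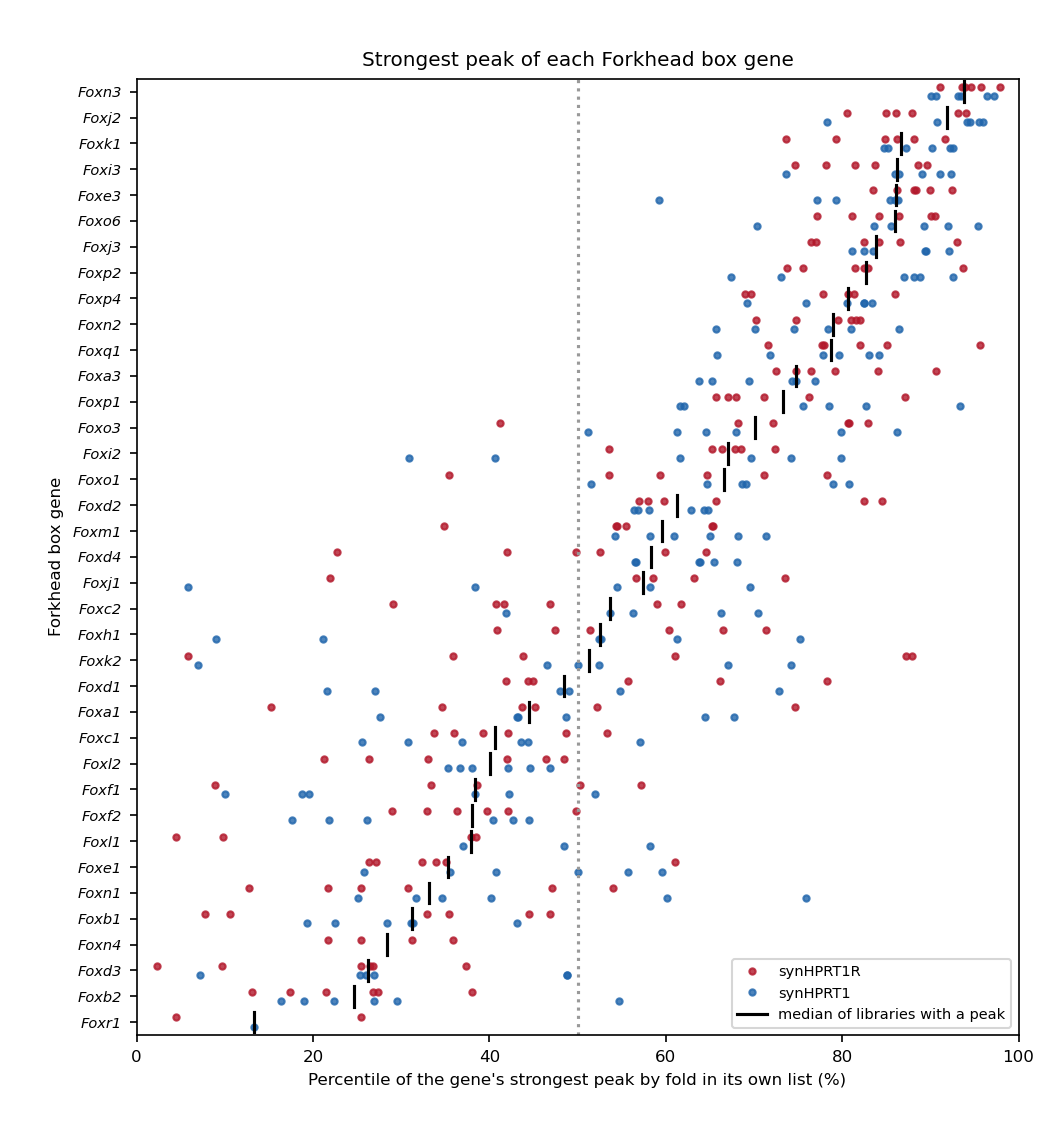
Percentile of each gene's strongest peak by the authors' fold within the peak list of its own library, for 37 members with a peak. Each point is a library (red synHPRT1R, blue synHPRT1), black bars are medians over the libraries with a peak, and the dotted line is the middle of the list. Foxn3 is above 90 in all 12 libraries, while Foxd3, Foxb1, Foxf2 and Foxl2 stay below the middle in all 12.

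The strongest peak was at the start of fewer members than of genes in general. Of 24 members with a peak and a RefSeq start, 9 had the median summit within 500 bp of it (37.5%, beside 62.6% of 13185 genes), 11 had it further downstream (45.8%, beside 29.5%) and 4 further upstream (16.7%, beside 7.87%). Among members under 10 kb the downstream cases were 7 of 13 (53.8%, beside 28.9%). The median distance was 827 bp in Foxe3, 1087 bp in Foxd3, 1150 bp in Foxd4, 1184 bp in Foxb2, 1242 bp in Foxl2 and 7050 bp in Foxa1. Foxf2, also among the 7, had a median of 2337 bp, which fell between separate regions. Its summits lay 13 to 1053 bp downstream in some libraries and 3621 to 3941 bp in the others. Other medians also mixed separate regions. The summits of Foxb2 ran from −921 to 1448 bp. Among the 4 upstream cases, those of Foxo3 ran from −1451 to 30105 bp, and those of Foxp1 from −112759 to −49 bp of its nearest start. In Foxj2 the median summit was 6363 bp downstream, in a region of 560 bp, and another region, which covered the start, was likewise listed in all 12 libraries. The starts used for Foxa1, Foxn1 and Foxn3, all counted as downstream, lie inside the annotated gene, that of Foxn1 only slightly.

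RefSeq promoters of 300 bases, from 250 before to 50 after a start, matched 25 members with 27 promoters, and 15 members had none in the table. A peak overlapped 10 of the 27 in all 12 libraries (37.0%, beside 42.6% of 20085 promoters) and 7 in no library (25.9%, beside 36.3%). The promoters of members held a median of 25 CpG, against 14 over all promoters. Of the 16 with at least 20 CpG, 9 were listed in all 12 libraries (56.3%, beside 73.2%) and 2, of Foxa1 and Foxn4, in none (12.5%, beside 2.67%). Of the 11 with fewer, 1, of Foxd1, was listed in all 12 (9.09%, beside 24.6%) and 5 in none (45.5%, beside 56.1%). The starts used for Foxa1, Foxn4 and Foxn3, all listed in none, lie inside the annotated gene rather than at its end. That of Foxn1, also listed in none, lies at 78386608, slightly inside a gene that runs to 78386783. At the end of Foxn3, a region, chr12:99563402-99564163, was listed in all 12 libraries.

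A forkhead-type motif, TGTTTAC on either strand (GTAAACA on the other), occurred in 1 of the 27 promoters, that of Foxa1, and in 3.04% of all promoters in the table. This counts letters in a window and does not show binding.

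**Figure D5:**
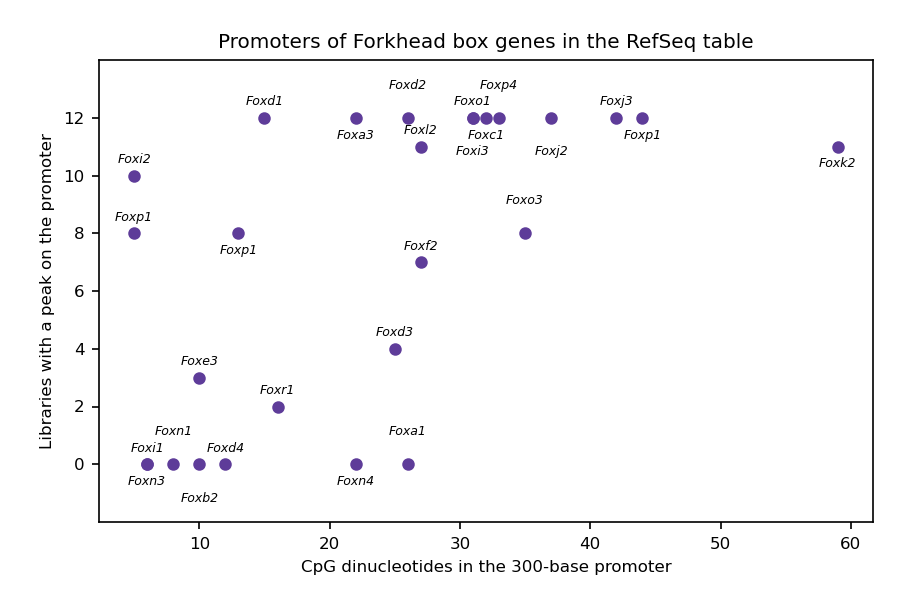
Number of CpG dinucleotides in each 300-base RefSeq promoter of a Forkhead box gene (x axis) and the number of the 12 libraries with a peak overlapping it (y axis). Each point is 1 of the 27 promoters; Foxp1 has 3, and overlapping points carry more than 1 name. The 10 promoters at 12 libraries hold 15 to 44 CpG, and those of Foxa1 and Foxn4, at starts inside the annotated gene, hold 26 and 22 CpG with no library.

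The share of members listed was compared between genotypes. It was 90.8 ± 3.42% in synHPRT1R libraries and 88.3 ± 2.04% in synHPRT1 libraries (SD, n = 6 each), a difference of 2.5 percentage points, synHPRT1R minus synHPRT1, which is smaller than the SD of synHPRT1R and larger than that of synHPRT1. Under the q-value filter the difference turned to −2.92 percentage points, with means of 78.8% in synHPRT1R and 81.7% in synHPRT1 libraries. The clone means were 90.8% and 90.8% for synHPRT1R and 89.2% and 87.5% for synHPRT1. Over all genes the share was 72.1 ± 1.87% in synHPRT1R and 72.6 ± 3.15% in synHPRT1 libraries. The number of member peaks was 105 ± 5.42 in synHPRT1R and 105 ± 17.2 in synHPRT1 libraries, with extremes of 80 and 128 in synHPRT1 libraries that had 38403 and 63563 peaks in all.

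No member differed between genotypes by the tests used. Genes listed in 1 to 11 libraries were compared by Fisher's exact test, two-sided, and Benjamini-Hochberg adjustment over all 3886 of them. Of the 6 members tested, 0 passed at an unadjusted p under 0.05 (beside 0.18% of all genes tested) and 0 at an adjusted p under 0.05 (beside 0%). The number of peaks per gene, compared by an exact permutation test over 13938 genes, gave 0 of 36 members at an unadjusted p under 0.05 (beside 1.08%) and 0 adjusted (beside 0%). The design limits what could pass. Of the 6 members tested for presence, only Foxl1, listed in 7 libraries, could have reached an unadjusted p under 0.05. Foxc2, Foxf1, Foxj1, Foxn4 and Foxr1 were listed in too many or too few libraries for any split to do so. The smallest exact p for 6 libraries against 6 is 0.00216. An adjusted call would have needed 169 fully separated genes, and 2 clones against 2 cannot go below 0.333.

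Single regions were tested in the same way. The members' windows held 168 consensus regions, made by joining overlapping peaks of all 12 libraries. Of these, 49 were listed in all 12 libraries (29.2%, beside 23.6% of 95132 regions) and 39 in 1 library (23.2%, beside 27.2%). Regions listed in all 12 had a median width of 1437 bp at members, against 1086 bp over all regions. Of 119 member regions tested, 0 had an unadjusted Fisher's exact p under 0.05 (beside 0.215%) and 0 an adjusted one (beside 0%). Only regions listed in 5 to 7 libraries could have reached an unadjusted p under 0.05. Of the 119, 48 were more frequent in synHPRT1R, 54 in synHPRT1 and 17 equal. Over all 72660 regions tested, 24047 were more frequent in synHPRT1R, 36546 in synHPRT1 and 12067 equal.

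The smallest exact p over these regions, 0.0606, belonged to 3 of them. It is the lowest that a region listed in 4 libraries can reach. The Foxn4 region was listed in 4 synHPRT1R and 0 synHPRT1 libraries. A region in Foxn2, chr17:88451885-88452241, and one in Foxp4, chr17:47909203-47909767, were each listed in 0 synHPRT1R and 4 synHPRT1 libraries. The 3 regions are 486, 357 and 565 bp wide, and the median width of member regions listed in 1 to 11 libraries was 408 bp.

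Genes that work with the family were counted in the same way. Of 27 partners and regulators, which include the kinases Akt1 and Sgk1, the deacetylase Sirt1 and the Smad proteins, 25 were listed in all 12 libraries (92.6%, beside 61.5% of all genes), and Ywhae and Smad3 in 11 each. Their median gene length was 69002 bp. Of 21 known targets 18 were listed in all 12 (85.7%), among them Cdkn1b, a cell cycle inhibitor under Foxo control, and Plk1, a mitotic kinase under Foxm1. The other 3 were Aurkb, in 6 synHPRT1R and 4 synHPRT1 libraries, Lefty1, in 3 and 4, and Lefty2, in 2 and 6. Lefty1 and Lefty2 are inhibitors and targets of Nodal, while Nodal itself was listed in all 12.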

How the data were processed

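ATAC-seq libraries from 12 samples (synHPRT1R and synHPRT1, 2 clones each, 3 replicates per clone, as the sample titles give them) each came with 1 peak list, so the authors called peaks per library. Per the submitters' processing notes, the tools were MACS2 2.1.0, Bowtie2 2.2.9, deepTools 3.5.0, bcl2fastq 2.20 and SAMtools 1.9, with the build GRCm38 (mm10). The sources used here do not give Tn5 shifting, duplicate handling or filters. The deposited fold is a ratio of signal to background at the summit. The −log10 p-value deposited for each peak, and its −log10 q-value, are the peak caller's own, and the lowest −log10 q in any list was between 1.30 and 1.33. The deposited score follows the −log10 q-value. Depth is unknown, so a peak was used as listed or not listed, and folds only placed a peak within its own list.

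Genes came from a RefSeq table of GRCm38.p6, which has no exons, and starts and sequences from RefSeq promoters of the same build. The window was the gene with 2 kb on either side, with an overlap of at least 1 bp. Tests were the two-sided Fisher's exact test and an exact permutation test over 924 splits, with Benjamini-Hochberg adjustment over all genes or regions (scipy 1.17.1, pandas 2.3.3, numpy 2.4.6, Python 3.11.15) and a threshold of 0.05. The tests of presence were tried on simulated data, and the counting was checked by a direct recount for a sample of genes and regions in the deposited lists. Named genes were every member listed in 1 to 11 libraries or in none, the 6 with the highest median percentile, and Foxd3, Foxh1, Foxm1, Foxo1, Foxo3 and Foxp1; other members were named by subfamily or role, and regions and distances singled out in the text were chosen after their values were seen. A gene that fits the symbol pattern but was not counted, and 1 counted member, are not reported here by name. The members and lists were chosen with earlier results of these data known. Replicate numbers did not pair the libraries. The alternatives were other windows, list lengths, q-values, overlaps and left-out libraries.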

Additional observations from a re-analysis of the deposited data

Results flagged for a closer look

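Groups of 6 libraries, 68 in all, were searched for 1 library apart from the other 5 by more than 0.625 of the group's range. The values were percentiles of a gene's strongest peak or, in a few groups, the share of members or the number of member peaks. In 7 groups, all of percentiles, 1 library lay apart. For normally distributed values, chance gives this in about 1 group in 20. Among synHPRT1R libraries, Foxe1 stood at 61.1 in clone 2 replicate 1, against 26.4 to 35.1 in the others. Foxm1 stood at 34.9 in clone 1 replicate 3, against 54.3 to 65.3, and Foxo3 at 41.2 in clone 2 replicate 3, against 68.2 to 83.0. Among synHPRT1 libraries, Foxb2 stood at 54.7 in clone 1 replicate 1, against 16.4 to 29.5, and Foxj2 at 78.3 in clone 1 replicate 2, against 90.7 to 96.0. Foxe3 at 59.2, against 77.1 to 86.4, and Foxi3 at 73.6, against 86.0 to 92.3, were both low in clone 2 replicate 3, the library with the shortest list. The part of list length in these values was not tested.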

How the results depend on the processing

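Of 127 recomputed summary values, 122 stayed within a set tolerance of the main value. The tolerance was a fixed ratio for counts and the SD among libraries for shares and for the difference between genotypes. The number of members listed in all 12 libraries was 21 under the q-value filter (−log10 q of 5 or more), against 32, and 10 of 25 (40%, beside 46.3% of genes) for a peak on the 300-base promoter, a measure chosen after seeing the data. The mean share of members per library was 85.4% with lists of equal length and 80.2% under the q-value filter, against 89.6%. The difference between genotypes, synHPRT1R minus synHPRT1, was −2.92 percentage points under the q-value filter, against 2.5; the cause was not tested. Leaving out each library in turn, 32 to 33 members were listed in all remaining libraries, 35 to 35 lacked at most 2 libraries and 2 were in none. The mean share was then 89.1% to 90% and the difference 1.67 to 3.67 points. The members and member regions called between genotypes numbered 0 throughout by the adjusted test. Without synHPRT1R clone 1 replicate 3, or without clone 2 replicate 3, Fisher's exact p for Foxn4 was 0.0152, with an adjusted p of 1. These are the synHPRT1R libraries that did not list Foxn4, so leaving either out could only lower p. For single members, the number of libraries was lower for 17 of 40 under the q-value filter, 9 with lists of equal length, 2 with a flank of 1 kb, and 1 each with gene ends only and with the summit in the window.

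Same-numbered replicates did not deviate together: the correlations of their deviations ran from −0.0322 to 0.0359 over 18 pairs, and 2 of 12 libraries matched best with their own number. With the replicate block, 0 members and 0 member regions were called, also at an unadjusted p under 0.05. That test could not reach the adjusted threshold in simulated data, so it says nothing about stability. Read depth is not given, so its part in weak peaks was not tested; Foxl1 was listed in 7 libraries on the deposited lists, 4 with lists of equal length and 3 under the q-value filter.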

Other observations

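The family also has members on chromosome X, outside the rule used above. Foxo4, a Foxo member restrained by the same insulin signalling as Foxo1, was listed in 6 synHPRT1R and 6 synHPRT1 libraries with 1 to 3 peaks. Foxr2, of the same lettered subfamily as Foxr1, was listed in 6 and 6 libraries with 1 or 2 peaks, whereas Foxr1 was listed in 3 of 12. Foxp3, the regulator of regulatory T cells, was listed in 0 and 0 libraries. The constructs lie on the same chromosome, and the sources used here do not give their distance from these genes.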
